A study of Mus musculus with 2 samples.

Results

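The 38 genes described here encode the enzymes and transporters that carry glucose to lactate, the pyruvate dehydrogenase complex with 3 of its kinases, and the enzymes of the tricarboxylic acid (TCA) cycle. They were chosen by symbol, as 38 of 32245 symbols in the gene tables, and all 38 were detected in both libraries. The samples were wild-type C57Bl6 mouse bone marrow, 8 weeks old by the series title, sorted by flow cytometry into long-term haematopoietic stem cells (LT-HSC) and short-term ones (ST-HSC), with 1 droplet library of each. Both gates take lineage-negative, Sca-1 and Kit positive cells without CD34 and with CD150. The LT-HSC gate leaves out CD48 and Flk2, and the ST-HSC gate asks for CD48. The number of animals, and whether they were pooled, is not given in the labels. With 1 library a group there is no replicate error, so no p-value is given, every interval is a 95% one for counting error only, and "higher" and "lower" are by size.

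Glycolysis splits a glucose molecule into pyruvate in the cytosol and yields some ATP. Lactate dehydrogenase turns pyruvate into lactate, while the mitochondrial pyruvate dehydrogenase complex turns it into acetyl-CoA, which the TCA cycle burns to feed the respiratory chain. Pyruvate dehydrogenase kinases switch the complex off, and quiescent HSCs are known for a high use of glycolysis and for these kinases. Several steps have more than one gene, and the isoforms differ in kinetics and in the tissues that use them.

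The library labelled LT-HSC kept 2722 of 2938 barcodes and 64673871 UMIs (unique molecular identifiers, 1 per captured RNA molecule), and that labelled ST-HSC 6648 of 7586 barcodes and 111783180 UMIs. Medians were 17595 and 13402 UMIs per cell, and 8 barcodes occurred in both libraries. RNA did not match the gate in the library labelled ST-HSC, and in that labelled LT-HSC only in part. Slamf1, which encodes CD150, was at 26.5 CPM (the gene's UMIs scaled to a common total) for LT-HSC and 1.26 for ST-HSC, and Cd34 at 29.2 and 242 CPM, so each direction below is between libraries as labelled. Cells were placed in ranges of 1 gene per 10000 UMIs: Hlf (a stem cell transcription factor) at 4 or more, Car1 (an erythroid carbonic anhydrase) at 20, Pf4 (the platelet chemokine) at 10 and Dntt (the lymphoid terminal transferase) at 2. Hlf-high cells were 597 (21.9% of kept cells) in LT-HSC and 2827 (42.5%) in ST-HSC. Car1-high cells were 747 (27.4%) and 266 (4.0%). There were 248 Pf4-high cells in LT-HSC and 1201 Dntt-positive cells in ST-HSC, while 11 Pf4-high ST-HSC cells and 1 Dntt-positive LT-HSC cell were too few to compare. These are ranges and not cell types: 308 LT-HSC and 894 ST-HSC kept cells lay between 20% below and 25% above the Hlf limit, and 88 and 76 that near to the Car1 limit. Cd48 RNA went with the gates in Hlf-high cells, at 2.63 CPM (LT-HSC) and 50.9 CPM (ST-HSC). In Car1-high cells it ran against them, at 57.3 CPM (LT-HSC) and 15.2 CPM (ST-HSC).

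Each marker list held the gene that set its range, so the sums here leave that gene out. The 9 HSC markers other than Hlf summed to 2889 CPM (LT-HSC) and 2901 CPM (ST-HSC) over Hlf-high cells, against 262 and 347 CPM in Car1-high cells. Car1 alone was at 6782 and 3783 CPM in Car1-high cells. The 11 other erythroid markers summed to 1817 and 2802 CPM there and to 125 and 78.4 CPM in Hlf-high cells, although Hba-a1 and Hbb-bs, the globins of mature red cells, were under 5 CPM in LT-HSC Car1-high cells. In Pf4-high cells Pf4 was at 5731 CPM and the 9 other megakaryocyte markers summed to 1584 CPM, against 425 CPM in the Hlf-high cells of LT-HSC. In Dntt-positive cells Dntt was at 858 CPM and the 9 other lymphoid progenitor markers summed to 2025 CPM, against 818 CPM in the Hlf-high cells of ST-HSC. The 10 neutrophil and monocyte progenitor markers summed to 535 CPM (LT-HSC) and 519 CPM (ST-HSC) over Hlf-high cells, but over all kept cells to 184 and 1585 CPM. These near sums in Hlf-high cells rested on unlike genes. In LT-HSC 7 of the 10 were under 5 CPM there, with Mpo at 0, and in ST-HSC 3 were. Depth and the cell cycle moved with the ranges. Car1-high cells had medians of 33247 (LT-HSC) and 39000.5 (ST-HSC) UMIs against 11629 and 11232 in Hlf-high cells. After thinning each cell to 5000 UMIs, 58.1% and 85.1% of Car1-high cells were cycling, against 2.41% and 21.8% of Hlf-high cells (59.3%, 88.0%, 2.68% and 21.2% without thinning). Their part in the results was not tested beyond the values without cycling cells given below.

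Promoter windows are shown for pyruvate kinase and lactate dehydrogenase, the last steps of the pathway, because their isoforms gave some of the widest differences within a library. Each runs 5′ to 3′ on the gene's strand from 250 bases before to 50 after the RefSeq start (GRCm38.p6). Pkm, Pklr and Ldha have 2 listed starts each, and the one farthest 5′ was taken. Capitals mark ACGTG, the core of the site that hypoxia-inducible factors are known to bind, and AGATAA, a site of GATA factors, each searched on both strands. A palindrome of the first motif, CACGTG, counts once on each strand.

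Pkm, chr9:59656326-59656625, plus strand: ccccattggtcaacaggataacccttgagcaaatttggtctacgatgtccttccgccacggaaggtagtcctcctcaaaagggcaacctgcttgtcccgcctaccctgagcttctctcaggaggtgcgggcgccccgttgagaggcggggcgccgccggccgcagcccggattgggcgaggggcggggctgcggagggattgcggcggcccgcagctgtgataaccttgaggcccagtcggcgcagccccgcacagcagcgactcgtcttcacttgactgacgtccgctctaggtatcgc

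Pklr, chr3:89135892-89136191, plus strand: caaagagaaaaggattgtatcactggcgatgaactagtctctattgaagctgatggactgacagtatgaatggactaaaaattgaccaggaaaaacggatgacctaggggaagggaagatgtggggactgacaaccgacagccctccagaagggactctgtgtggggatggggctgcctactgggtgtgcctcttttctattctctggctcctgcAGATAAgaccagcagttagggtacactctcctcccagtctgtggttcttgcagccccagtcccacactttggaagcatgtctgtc

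Ldha, chr7:46845554-46845853, plus strand: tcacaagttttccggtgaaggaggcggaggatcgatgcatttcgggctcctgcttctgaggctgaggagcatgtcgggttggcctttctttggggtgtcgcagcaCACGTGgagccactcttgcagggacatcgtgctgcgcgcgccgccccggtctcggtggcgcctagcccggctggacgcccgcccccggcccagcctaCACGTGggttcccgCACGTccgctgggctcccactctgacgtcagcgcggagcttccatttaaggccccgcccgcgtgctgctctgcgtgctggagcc

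Ldhb, chr6:142507908-142508207, minus strand: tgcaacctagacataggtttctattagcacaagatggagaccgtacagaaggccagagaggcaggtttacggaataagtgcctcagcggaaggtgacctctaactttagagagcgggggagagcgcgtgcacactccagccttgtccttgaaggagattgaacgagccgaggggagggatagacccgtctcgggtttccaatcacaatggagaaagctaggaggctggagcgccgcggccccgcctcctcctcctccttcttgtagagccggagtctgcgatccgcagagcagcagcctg

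The Ldha window held 5 ACGTG matches over both strands, while those of Ldhb, Pkm and Pklr held 0. The Pklr window held 1 AGATAA. Of the 36 members with a window in the table, 15 (41.7%) held ACGTG, against 19.6% of the 27025 genes in the table. The members with it were Aldoc, Gapdh, Hk2, Hk3, Idh3g, Ldha, Mdh1, Ogdh, Pdhb, Pdk2, Pdk3, Pfkm, Pgam1, Pgk1 and Slc2a1. AGATAA was in 2 of 36 (5.56%), Dld and Pfkm, against 11.4% of all genes. Slc2a3 and Idh3a had no entry. These are matches of letters, not binding sites, and other forms of either site were not searched.

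**Figure D1:**
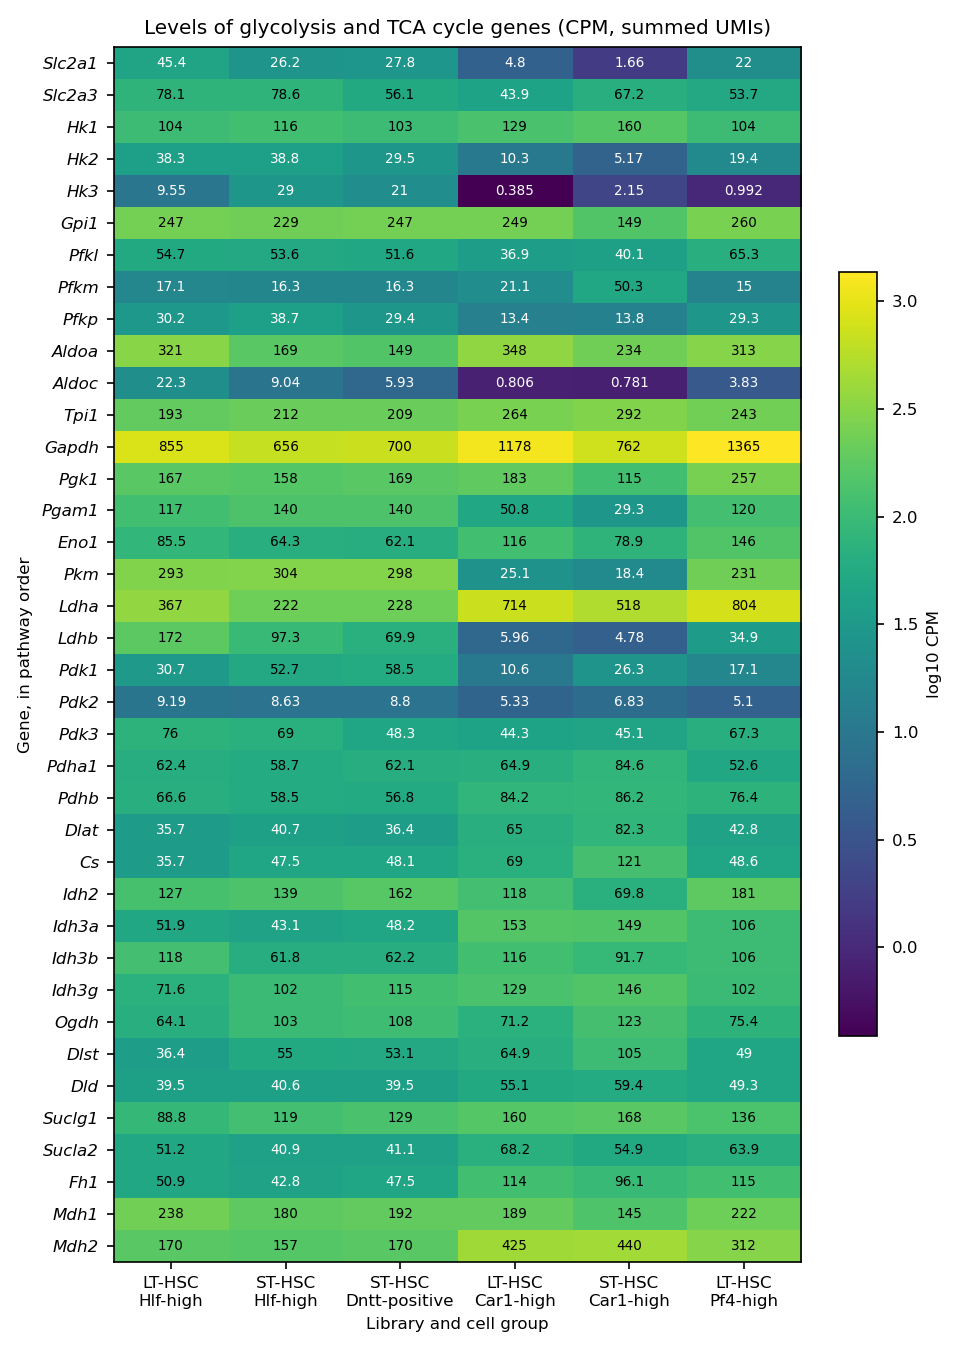
Levels of the 38 genes in pathway order from top to bottom (CPM of summed UMIs, printed in each cell and coloured on a log10 scale) in 6 combinations of library and cell range. Pkm and Ldhb drop in both Car1-high columns while Mdh2 and Idh3a are highest there, and Gapdh peaks at 1365 CPM in Pf4-high cells.

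Together the 38 genes held 0.534% of all LT-HSC UMIs and 0.445% of all ST-HSC UMIs. UMIs of a 3′ kit count transcript ends, so CPM levels can be set side by side between genes without a length correction, though capture may differ from gene to gene. Gapdh, the glyceraldehyde phosphate dehydrogenase, was the highest member in every library and range. It was at 855 CPM over the Hlf-high cells of LT-HSC and 656 CPM over those of ST-HSC. Among the Hlf-high LT-HSC cells Ldha (367 CPM), Aldoa (321 CPM) and Pkm (293 CPM) followed, and among the ST-HSC ones Pkm (304 CPM), Gpi1 (229 CPM) and Ldha (222 CPM), the last pair with overlapping intervals. Pdk2 was lowest in Hlf-high cells, at 9.19 CPM (LT-HSC) and 8.63 CPM (ST-HSC). Next came Hk3 at 9.55 CPM among LT-HSC cells and Aldoc at 9.04 CPM among ST-HSC cells, and these neighbours did not differ beyond counting error. Reads of Gapdh, Aldoa, Eno1 and Pgam1 may be split with near-identical copies, which makes their levels uncertain. A second row named Aldoa held 12 and 81 UMIs over all barcodes and was added to the first.

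The widest differences within a library separated Car1-high from Hlf-high cells. Pkm, the pyruvate kinase of most dividing cells, and Ldhb, the lactate dehydrogenase subunit that favours pyruvate, were many times lower in Car1-high cells, while Ldha and most genes of the TCA cycle were higher. Slc2a1, which takes up glucose, and Hk2, which traps it, were lower in Car1-high cells of both libraries. In LT-HSC, 15 of 37 members tested (mean of at least 5 CPM over both sides) were higher by at least 25%, where 24.5% of all 10327 genes tested were, and 13 were lower by at least 20%, where 52.3% of all genes were. In ST-HSC 18 of 37 were higher (28.7% of all genes) and 14 lower (47.6%). The members' median log2 ratio was 0.13 in LT-HSC against -0.38 over all genes, and 0.30 in ST-HSC against -0.25.

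Scaling matters for these counts. Scaled by TMM effective sizes in place of total UMIs, the all-gene median became 0.29 (LT-HSC) and 0.10 (ST-HSC). Genes higher went from 31.9% to 62.8% of the LT-HSC genes called and from 37.7% to 53.4% of the ST-HSC genes called. Members then counted 24 higher and 8 lower in LT-HSC, and 21 and 9 in ST-HSC. The lower values of Pfkl, Pdk2 and Pdk3 in both libraries, of Slc2a3 and Mdh1 in LT-HSC, and of Gpi1 and Pgk1 in ST-HSC were no longer called under that scaling. In LT-HSC, Pfkl turned to a log2 ratio of 0.076 and Mdh1 to 0.31. Those of Pkm and Ldhb were still at log2 ratios of -2.91 and -4.21 in LT-HSC and -3.72 and -4.02 in ST-HSC.

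Pkm was at 293 CPM in Hlf-high and 25.1 CPM in Car1-high cells of the LT-HSC library, 11.7-fold lower (10.8 to 12.7). In ST-HSC it was at 304 and 18.4 CPM, 16.6-fold lower (14.4 to 19.3). Per cell, the Hlf-high LT-HSC cells held 4.11 Pkm UMIs on average and the Car1-high ones 0.957, while their UMIs of all genes averaged 14032 and 38201. Pkm lies on chromosome 9 from 59656368 to 59679375 (mm10), and counts per gene do not tell its M1 and M2 splice forms apart. Without cycling cells the log2 ratio was -2.93 in LT-HSC (main value -3.55) and -2.86 in ST-HSC (main value -4.05), the latter over 39 Car1-high cells.

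Pklr, the liver and red cell pyruvate kinase, is no member and was looked at after its values were seen. It had 0 UMIs in Hlf-high LT-HSC cells, which allows up to 0.358 CPM, and 741 UMIs (26.0 CPM) in Car1-high ones, at least 72.5-fold higher. In ST-HSC it had 2 UMIs in Hlf-high cells and 520 (50.8 CPM) in Car1-high ones, a ratio of 1058 (291.5 to 8763). Pkm gave 100% (99.8 to 100) of the UMIs of both genes in Hlf-high LT-HSC cells and 49.1% (46.5 to 51.7) in Car1-high ones. In Car1-high ST-HSC cells it gave 26.6% (23.3 to 30.0). The level of Pklr in Car1-high LT-HSC cells, 26.0 CPM, was near that of Pkm there and far under the 293 CPM of Pkm in Hlf-high cells.

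Ldhb was at 172 CPM in Hlf-high and 5.96 CPM in Car1-high cells of LT-HSC, 28.9-fold lower (24.6 to 34.0). The ST-HSC cells had 97.3 and 4.78 CPM, a 20.3-fold lower level (15.4 to 27.5). Ldha, the subunit that favours lactate, went the other way, from 367 to 714 CPM in LT-HSC (ratio 1.94, 1.87 to 2.02) and from 222 to 518 CPM in ST-HSC (2.33, 2.25 to 2.41). As a share of lactate dehydrogenase UMIs, Ldhb was 31.9% (30.5 to 33.3) in Hlf-high and 0.828% (0.708 to 0.961) in Car1-high LT-HSC cells. In ST-HSC it was 30.4% (29.6 to 31.2) and 0.914% (0.677 to 1.21). The libraries were near each other in both ranges, though with doubled limits the ST-HSC Hlf-high share was 36.3%. Ldha lies on chromosome 7 from 46841475 to 46855627 and Ldhb on chromosome 6 from 142490249 to 142507957.

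**Figure D2:**
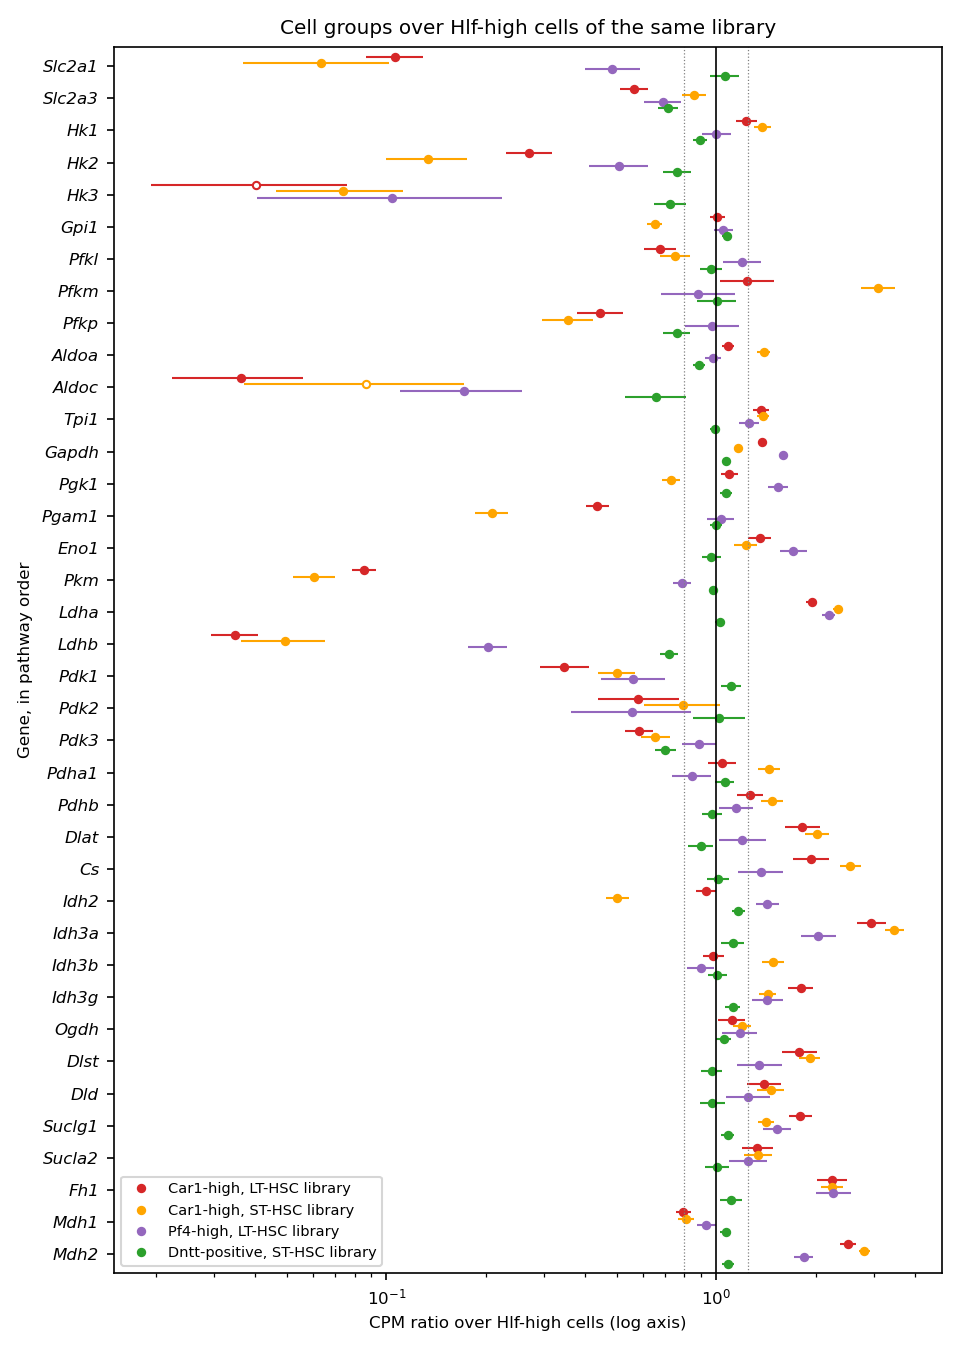
CPM ratio of Car1-high, Pf4-high and Dntt-positive cells over Hlf-high cells of the same library, for each member in pathway order (log axis; bars are 95% counting intervals, open points have a mean under 5 CPM, dotted lines mark 20% lower and 25% higher). Ldhb and Pkm lie far to the left in Car1-high cells of both libraries, at 0.0347 and 0.0855 in LT-HSC, and the TCA cycle genes at the bottom lie mostly to the right.

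Entry of glucose also differed by range. Slc2a1 (GLUT1), a glucose transporter, was at 45.4 CPM in Hlf-high and 4.80 CPM in Car1-high LT-HSC cells, a ratio of 0.106 (0.0864 to 0.129), and at 26.2 and 1.66 CPM in ST-HSC, 0.0633 (0.0367 to 0.102). Slc2a3 (GLUT3), another transporter, was at 0.563 (0.512 to 0.620) in LT-HSC and 0.854 (0.786 to 0.928) in ST-HSC, so that it took 90.2% and 97.6% of the UMIs of both transporters in Car1-high cells. Hk2, a hexokinase that is known to be inducible, was at 38.3 and 10.3 CPM in LT-HSC (0.270) and at 38.8 and 5.17 CPM in ST-HSC (0.133). Hk1, the hexokinase of most tissues, was at ratios of 1.23 and 1.38 and took 68.6% (65.9 to 71.1) of hexokinase UMIs in Hlf-high and 92.3% (91.4 to 93.1) in Car1-high LT-HSC cells. In ST-HSC its shares were 63.0% and 95.6%. Hk3, a hexokinase of myeloid cells, was under 5 CPM in Car1-high cells of both libraries.

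In the middle of the pathway the isoforms parted as well. Pfkp, the platelet-type phosphofructokinase, was at ratios of 0.443 (LT-HSC) and 0.355 (ST-HSC) in Car1-high over Hlf-high cells, and Pfkl, the liver type, at 0.676 and 0.749. Pfkm, the muscle type, was at 17.1 and 21.1 CPM in LT-HSC (1.24, 1.03 to 1.49) and at 16.3 and 50.3 CPM in ST-HSC (3.09, 2.75 to 3.47). It took 48.3% (45.2 to 51.3) of phosphofructokinase UMIs in ST-HSC Car1-high cells, and 29.5% in LT-HSC ones. Aldoc, an aldolase known from brain, was at 22.3 and 0.806 CPM in LT-HSC (0.0361, 0.0223 to 0.0558), while Aldoa was at 1.08 in LT-HSC and 1.39 in ST-HSC, where it was no longer called without cycling cells (log2 ratio 0.20). Pgam1, the phosphoglycerate mutase, was lower at 0.436 and 0.209. Tpi1 was higher at 1.36 and 1.38, and Gapdh at 1.38 in LT-HSC and 1.16 in ST-HSC. Gpi1 and Pgk1 were at 1.01 and 1.1 in LT-HSC and lower in ST-HSC, at 0.649 and 0.729, where by TMM neither was called (log2 ratios -0.29 and -0.12) and without cycling cells Pgk1 was not. Eno1 was at 1.35 in LT-HSC and 1.23 in ST-HSC.

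**Figure D3:**
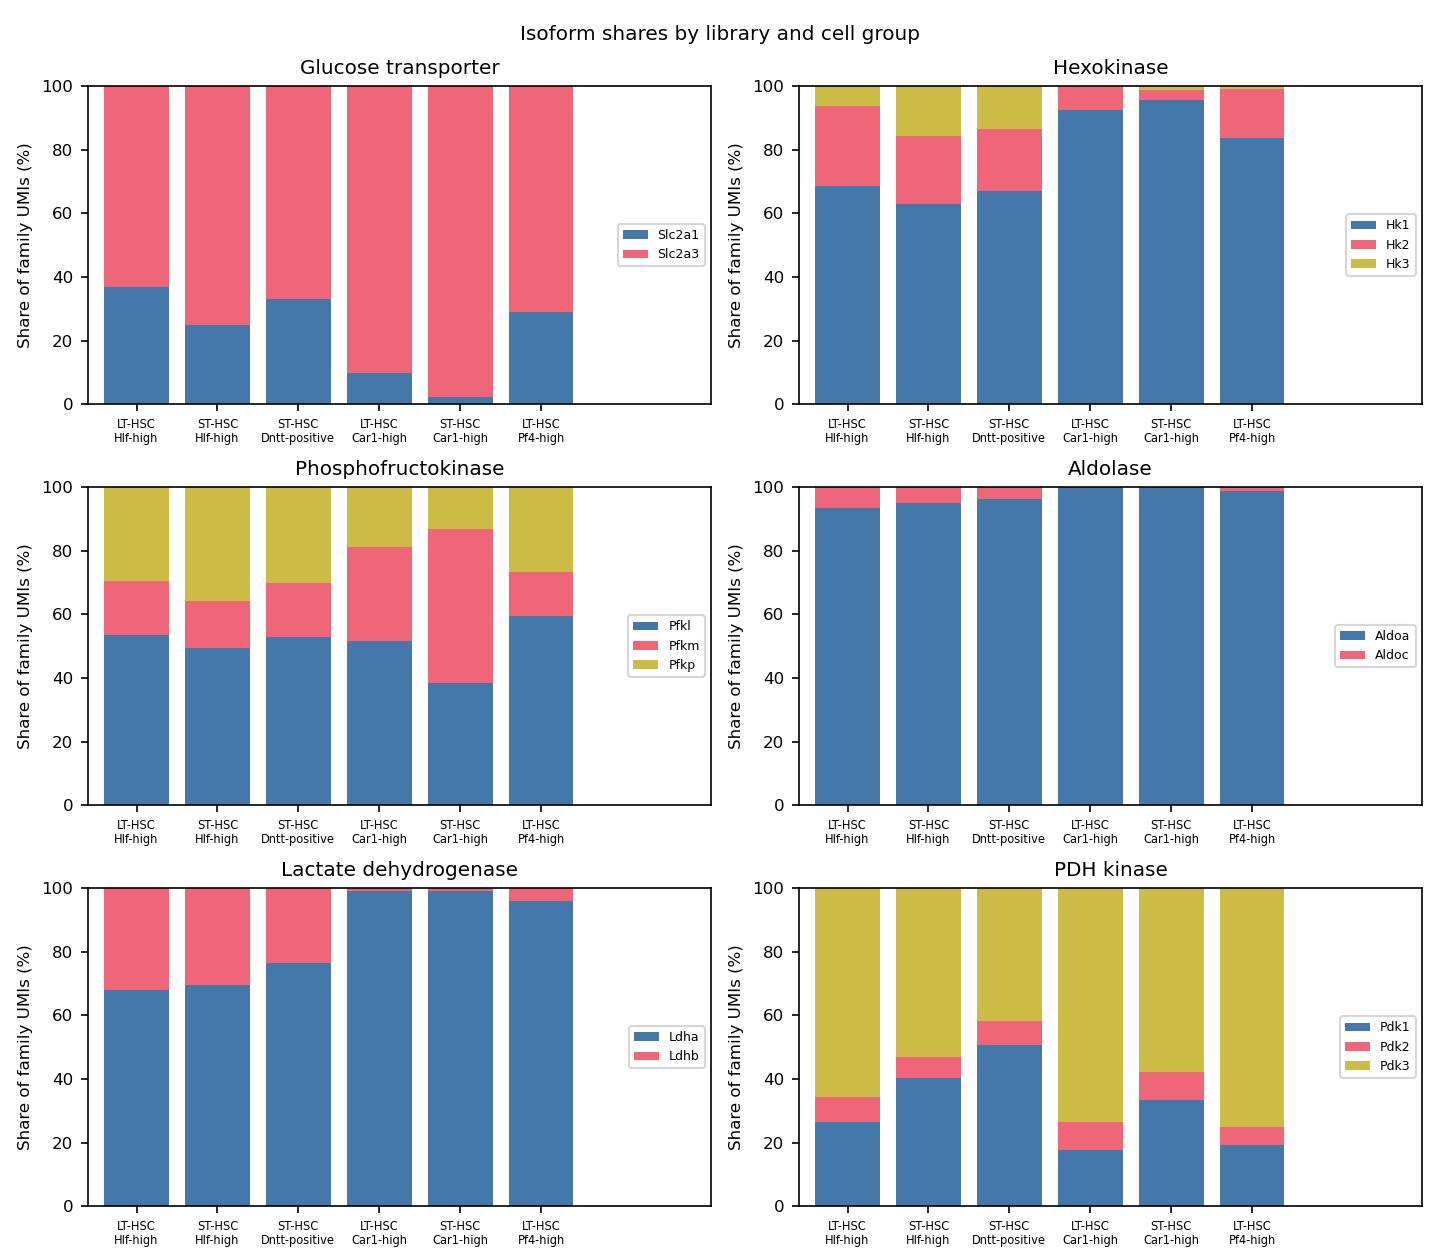
Share of each gene family's UMIs (%) taken by each isoform, as stacked bars from 0 to 100, in 6 combinations of library and cell range. Hk1 and Ldha fill most of their bars in Car1-high cells, and Pdk1 takes more of the kinase UMIs in each ST-HSC bar than in the LT-HSC bar of the same range.

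Past pyruvate, all 3 pyruvate dehydrogenase kinases were lower in Car1-high cells by total-UMI scaling. Pdk1, the kinase known as a target of hypoxia-inducible factor, was at 30.7 and 10.6 CPM in LT-HSC (0.346, 0.292 to 0.410) and at 52.7 and 26.3 CPM in ST-HSC (0.498, 0.437 to 0.565). Pdk3 was at 0.582 and 0.654, and Pdk2 at 0.579 and 0.792, the last with an interval that took in 1 (0.604 to 1.03). Of the complex that they regulate, the E2 subunit Dlat was at 1.82 and 2.02 and the E1 subunit Pdhb at 1.26 and 1.47. The other E1 subunit, Pdha1, was at 1.04 (0.943 to 1.15) in LT-HSC and 1.44 (1.33 to 1.56) in ST-HSC.

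Of the 13 TCA cycle genes, 9 were higher in Car1-high cells of LT-HSC and 10 in ST-HSC, with 1 lower in each. Of all genes tested, 24.5% (LT-HSC) and 28.7% (ST-HSC) were higher there and 52.3% and 47.6% lower. Idh3a, the catalytic subunit of the NAD-dependent isocitrate dehydrogenase, was at 51.9 and 153 CPM in LT-HSC (2.95, 2.67 to 3.26) and at 43.1 and 149 CPM in ST-HSC (3.47, 3.24 to 3.71). Mdh2, the mitochondrial malate dehydrogenase, was at 170 and 425 CPM in LT-HSC (2.50, 2.37 to 2.65) and at 157 and 440 CPM in ST-HSC (2.80, 2.70 to 2.91). Fumarase, Fh1, was at 2.24 in both libraries, and citrate synthase, Cs, at 1.93 and 2.55. The lower gene was the cytosolic malate dehydrogenase Mdh1 in LT-HSC (0.793) and the NADP-dependent Idh2 in ST-HSC (0.501). The call of Mdh1 ended by TMM, which turned its log2 ratio from -0.34 to 0.31, and without cycling cells (-0.23). Of the other TCA cycle genes, the 2-oxoglutarate dehydrogenase subunit Ogdh was at 1.11 and 1.19 and its partners Dlst and Dld at 1.78 and 1.39 in LT-HSC. The succinyl-CoA ligase subunits Suclg1 and Sucla2 were at 1.80 and 1.33 there. For ST-HSC these 4 genes were at 1.92, 1.46, 1.41 and 1.34. Idh3g was at 1.80 and 1.43, and Idh3b at 0.978 (0.911 to 1.05) and 1.48 (1.37 to 1.60). Without cycling cells, Mdh2 was still at a log2 ratio of 1.23 in LT-HSC, while Sucla2 was no longer called in either library (0.28 and 0.11).

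Both Car1-high comparisons use different cells throughout. Scaled to total UMIs, they shared 13 higher members (86.7% of those in LT-HSC, 72.2% of those in ST-HSC) and 10 lower members (76.9% and 71.4%), and 0 were called in opposite directions. Of all genes tested, 24.5% (LT-HSC) and 28.7% (ST-HSC) were higher and 52.3% and 47.6% lower. Sharing over all genes was not counted, so the shared calls cannot be read as particular to the members. The 13 were Tpi1, Ldha, Pdhb, Dlat, Cs, Idh3a, Idh3g, Dlst, Dld, Suclg1, Sucla2, Fh1 and Mdh2. The 10 were Slc2a1, Hk2, Pfkl, Pfkp, Pgam1, Pkm, Ldhb, Pdk1, Pdk2 and Pdk3, of which Pfkl, Pdk2 and Pdk3 were called in neither library by TMM.

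Pf4-high cells of LT-HSC held more Gapdh, Pgk1, Eno1 and Ldha RNA, and more of most TCA cycle genes, than Hlf-high cells of that library. Of 38 members 13 were higher (23.0% of all genes tested) and 9 lower (42.7%), with a median log2 ratio of 0.13 against -0.20 over all genes. By TMM the all-gene median was 0.057, genes higher went from 35.0% to 53.5% of those called, and members counted 19 higher and 6 lower of 37. Ldha was at 804 CPM (2.19, 2.10 to 2.29), Fh1 at 115 CPM (2.26, 2.01 to 2.55), Idh3a at 106 CPM (2.04, 1.81 to 2.30) and Mdh2 at 312 CPM (1.84, 1.72 to 1.97). Gapdh was at a ratio of 1.60, Eno1 (enolase) at 1.71 and Pgk1 (phosphoglycerate kinase) at 1.54. Suclg1 (1.53), Idh2 (1.43), Idh3g (1.43), Cs (1.36), Dlst (1.35) and Tpi1 (1.26) made up the other higher genes, of which Tpi1 was no longer called without cycling cells (log2 ratio 0.22), and Pdha1 was at 0.842. At the low end were Hk3 (0.104, on 7 UMIs in Pf4-high cells), Aldoc (0.171), Ldhb (0.203, 0.176 to 0.232) and Slc2a1 (0.484). Hk2 (0.507), Pdk2 (0.555), Pdk1 (0.559) and Slc2a3 (0.688) were lower as well, though Slc2a3 was no longer called by TMM (log2 ratio -0.29) or without cycling cells (-0.31). By TMM Hk3 fell under the mean of 5 CPM and was not tested. Pkm was at 231 CPM, a ratio of 0.787 (0.739 to 0.838), but at a log2 ratio of -0.096 by TMM, which is not called. Ldhb gave 4.16% (3.66 to 4.70) of lactate dehydrogenase UMIs, between the Hlf-high and the Car1-high share. In these cells 40.0% were cycling, and the comparison shares its Hlf-high cells with the Car1-high one.

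Dntt-positive cells of ST-HSC stood close to the Hlf-high cells of their library. Cells past both limits counted as Dntt-positive, so these ranges overlapped in Hlf. Hlf was at 381 CPM in Dntt-positive and 900 CPM in Hlf-high cells, and the 9 other HSC markers summed to 1736 and 2901 CPM. The part of this overlap in the closeness was not tested. No member was higher (0 of 38, where 6.22% of all genes were) and 7 were lower (12.9%), with a median log2 ratio of 0.0041 against -0.048. By TMM the counts were again 0 and 7, and genes higher went from 32.5% to 45.6% of all genes called. The 7 were Aldoc (0.656), Pdk3 (0.701), Slc2a3 (0.713), Ldhb (0.719), Hk3 (0.722), Pfkp (0.759) and Hk2 (0.760). The highest ratios were for Idh2 (1.17, 1.12 to 1.22), Idh3a (1.12), Idh3g (1.12) and Fh1 (1.11). Pkm was at 298 CPM against 304 CPM (0.978, 0.949 to 1.01), Gapdh at 1.07, Cs at 1.01 and Pdha1 at 1.06. Pdk1 gave 50.6% (48.5 to 52.6) of kinase UMIs, against 40.4% (39.1 to 41.8) in Hlf-high cells, while Pdk3, whose gene lies on chromosome X, gave 41.8% against 52.9%. The ratio of Hk3 was no longer called with the limits on the 4 genes halved (log2 ratio -0.30), and that of Pfkp with them halved or doubled.

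**Figure D4:**
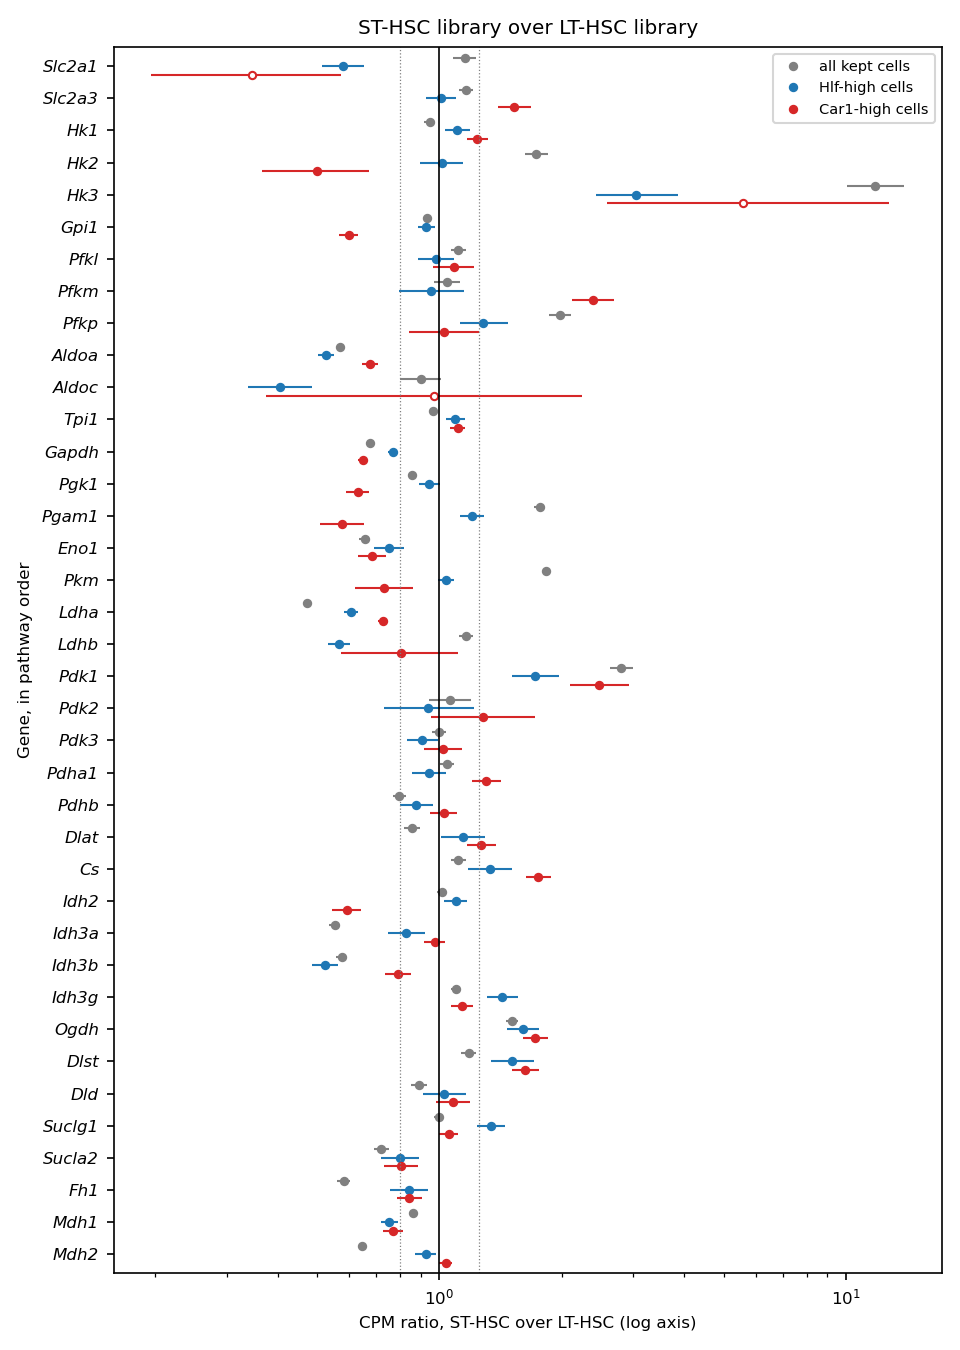
CPM ratio of ST-HSC over LT-HSC for each member in pathway order, over all kept cells, Hlf-high cells and Car1-high cells (log axis; bars are 95% counting intervals, open points have a mean under 5 CPM, dotted lines mark 20% lower and 25% higher). Ldha, Gapdh, Aldoa and Eno1 lie left of both dotted lines and Pdk1 and Ogdh right of both in all 3 sets.

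Between the libraries, over all kept cells, Hk3 was higher and Ldha lower in ST-HSC. Of 38 members 7 were higher (38.5% of all genes) and 10 lower (23.0%), with a median log2 ratio of -0.0044 against 0.12 over all genes. By TMM the all-gene median was -0.0096, genes higher went from 62.6% to 49.8% of those called, and members counted 7 and 13. The highest ratios were for Hk3 (2.50 and 29.6 CPM, 11.8, 10.1 to 13.9), Pdk1 (16.8 and 46.9 CPM, 2.80, 2.62 to 2.99), Pfkp (1.98) and Pkm (1.83, 1.79 to 1.87). The lowest were for Ldha (638 and 301 CPM, 0.472, 0.465 to 0.478), Idh3a (0.552), Aldoa (0.570) and Idh3b (0.575). Pgam1 (1.76), Hk2 (1.73) and Ogdh (1.5) were also higher, and Fh1 (0.581), Mdh2 (0.644), Eno1 (0.654), Gapdh (0.675), Sucla2 (0.719) and Pdhb (0.797) also lower, the last no longer called without cycling cells (log2 ratio -0.32). Libraries held the ranges in unlike shares, so these values mix levels within cells with shares of cells. Hk3 stood at 41.8 CPM in the ST-HSC cells outside the 4 ranges, where the neutrophil and monocyte markers summed to 3651 CPM, and their part in its level was not tested.

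Within Hlf-high cells the pattern over all kept cells held only in part. Pkm was at 293 and 304 CPM, a ratio of 1.04 (0.994 to 1.08), and Idh3a at 0.829, which is not called. Without cycling cells, however, Idh3a was called lower (log2 ratio -0.43), and so was Fh1 (-0.37, main value -0.25). Of 38 members 8 were higher in ST-HSC (29.0% of all genes) and 10 lower (26.4%), with a median log2 ratio of -0.075 against 0.0033 over all genes, so the members' counts were near the background. By TMM the counts were 9 and 8, where 3595 of all 10747 genes tested were higher and 2358 lower. Among the glycolysis genes, Ldha (367 and 222 CPM, 0.606, 0.582 to 0.631), Ldhb (172 and 97.3 CPM, 0.566, 0.533 to 0.601), Aldoa (321 and 169 CPM, 0.525, 0.502 to 0.549), Aldoc (0.405, 0.339 to 0.485), Slc2a1 (0.578), Eno1 (0.752) and Gapdh (0.767, 0.747 to 0.787) were lower. Gapdh was no longer called by TMM or by median-of-ratios scaling, at a log2 ratio of -0.31 with each. Because both lactate dehydrogenase genes were lower together, the Ldhb share differed little between the libraries. Hk3 (9.55 and 29.0 CPM, 3.04, 2.42 to 3.86), Pdk1 (30.7 and 52.7 CPM, 1.72, 1.51 to 1.96) and Pfkp (1.28) were higher, though Pfkp was no longer called without cycling cells (log2 ratio 0.32), without the cells marked as doublets, by per-cell means or with doubled limits.

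Among the 13 TCA cycle genes of Hlf-high cells, 5 were higher in ST-HSC (29.0% of all genes) and 3 lower (26.4%). Subunits of the 2-oxoglutarate dehydrogenase complex, which makes succinyl-CoA, were higher: Ogdh was at 64.1 and 103 CPM (1.60, 1.47 to 1.76) and Dlst at 36.4 and 55.0 CPM (1.51, 1.34 to 1.71). The remaining subunit Dld, shared with pyruvate dehydrogenase, was at 1.03 (0.914 to 1.16). Suclg1 (1.34) and Cs (1.33, 1.18 to 1.51) were higher too. The 3 subunits of isocitrate dehydrogenase went apart. Idh3b was at 118 and 61.8 CPM (0.523, 0.486 to 0.563), Idh3g at 71.6 and 102 CPM (1.43, 1.31 to 1.56) and Idh3a at 51.9 and 43.1 CPM (0.829, 0.746 to 0.923). Sucla2 (0.799) and Mdh1 (0.754) were lower, but Sucla2 was no longer called by TMM (log2 ratio -0.25). All 3 pyruvate dehydrogenase subunits lay between 0.878 and 1.14. The ST-HSC cells in this range had 21.8% cycling cells against 2.41%, and 3.55% mitochondrial UMIs in the median cell against 1.92%. Without cycling cells the log2 ratios were -0.76 for Ldha, -0.70 for Ldhb, -0.70 for Aldoa, 0.87 for Pdk1, 1.63 for Hk3 and 0.65 for Ogdh, against main values of -0.72, -0.82, -0.93, 0.78, 1.60 and 0.68.

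Members also differed between the libraries in Car1-high cells. The median Car1-high cell had a mitochondrial share of 1.40% (LT-HSC) or 3.65% (ST-HSC), and 58.1% and 85.1% of these cells were cycling. The part of the mitochondrial share in the values below was not tested. Of 35 members tested, 9 were higher in ST-HSC (31.9% of all genes) and 12 lower (20.6%), with a median log2 ratio of 0.034 against 0.086. Glycolysis genes made up most of the lower ones. From Tpi1 to Pkm, 5 of the 6 genes of lower glycolysis were lower: Gapdh (1178 and 762 CPM, 0.647, 0.631 to 0.663), Pgk1 (0.629), Pgam1 (0.576), Eno1 (0.682) and Pkm (0.732, 0.620 to 0.861). The other, Tpi1, was at 1.11. Hk2 (0.50, 0.366 to 0.672), Gpi1 (0.598), Aldoa (0.675), Ldha (0.726), Idh2 (0.592), Idh3b (0.793) and Mdh1 (0.768) were lower as well. Pdk1 (10.6 and 26.3 CPM, 2.47, 2.09 to 2.92), Pfkm (21.1 and 50.3 CPM, 2.38, 2.11 to 2.68), Cs (69.0 and 121 CPM, 1.75, 1.63 to 1.88), Ogdh (1.72), Dlst (1.63), Slc2a3 (1.53), Pdha1 (1.30), Pdk2 (1.28, 0.952 to 1.71) and Dlat (1.27) were higher. By TMM 6 were higher and 14 lower, where 2447 and 2312 of all 9120 genes tested were. Pdha1, Pdk2 and Dlat were then no longer called (log2 ratios 0.31, 0.28 and 0.26). Leaving out cycling cells kept 310 LT-HSC and 39 ST-HSC cells. Pkm then turned to a log2 ratio of 0.13, Pdk2 to -0.18 and Hk2 to -0.043, from -0.45, 0.36 and -1.0, and Idh3b was no longer called (-0.26).

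The comparisons within Hlf-high and within Car1-high cells had 4 members higher in both, Pdk1, Cs, Ogdh and Dlst, which is 50% of those in Hlf-high cells and 44.4% of those in Car1-high cells. They had 6 lower in both, Aldoa, Gapdh, Eno1, Ldha, Idh3b and Mdh1 (60% and 50%), and 0 in opposite directions. Of all genes tested, 29.0% were higher and 26.4% lower in Hlf-high cells, and 31.9% and 20.6% in Car1-high cells. How many of all genes shared a call was not counted, so these counts cannot be read as particular to the members. By TMM Gapdh was not called in Hlf-high cells, and without cycling cells Idh3b was not called in Car1-high cells. Both come from the same 2 libraries, so that a difference between the libraries as a whole and one between the sorted cells cannot be told apart. Pdk1 gave 26.5% (23.7 to 29.4) of kinase UMIs over LT-HSC Hlf-high cells and 40.4% over ST-HSC ones, and 17.6% (15.9 to 19.5) and 33.6% (30.3 to 37.0) in Car1-high cells. Pdk1 lies on chromosome 2 from 71873224 to 71903858, Idh3b on chromosome 2 from 130279309 to 130284547, Ogdh on chromosome 11 from 6291633 to 6356642 and Hk3 on chromosome 13 from 55005985 to 55021385 (mm10).

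**Figure D5:**
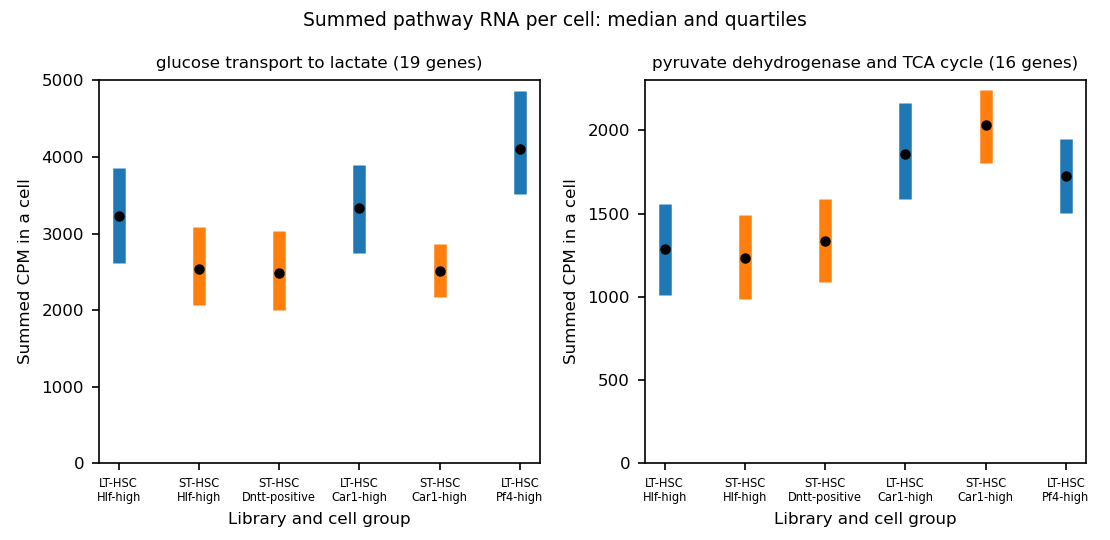
Summed CPM in a cell of the 19 genes from glucose transport to lactate (left) and of the 16 genes of pyruvate dehydrogenase and the TCA cycle (right), as the median cell (point) and the quartiles (bar) of each range, blue for LT-HSC and orange for ST-HSC. On the left the LT-HSC medians lie above the ST-HSC median of the same range, and on the right both Car1-high medians lie above both Hlf-high ones.

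Summed over the 19 genes from transport to lactate, the median Hlf-high cell held 3235 CPM (LT-HSC) and 2540 CPM (ST-HSC), with quartiles of 2617 to 3852 and 2061 to 3080. Car1-high cells held 3328 and 2505 CPM. On this sum each Car1-high median lay within the quartiles of the Hlf-high cells of its library, although the genes behind it differed, with more Ldha and less Pkm and Ldhb. Pf4-high cells were highest at 4100 CPM (3520 to 4863). Summed over the 16 genes of pyruvate dehydrogenase and the TCA cycle, Hlf-high cells held 1284 CPM (LT-HSC) and 1236 CPM (ST-HSC), and Dntt-positive cells 1336 CPM. Car1-high cells held 1856 CPM (1588 to 2167) and 2033 CPM (1805 to 2240), and Pf4-high cells 1728 CPM. The lower quartile of both Car1-high sets lay above the upper quartile of both Hlf-high sets, 1556 and 1490 CPM. Cells of a library are not replicates, and quartiles describe their spread only.

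Other genes of these pathways, from lists that hold no member, followed in part. Of 22 further glycolysis genes, 10 were tested over all kept cells, with 3 higher in ST-HSC (38.5% of all genes) and 4 lower (23.0%). Pfkfb3, which makes the activator of phosphofructokinase, was at 28.2 and 66.9 CPM (2.37) there and at 1.57 (1.42 to 1.75) in Hlf-high cells. Pfkfb4 was at 2.36 and 1.61. Pgm2, a phosphoglucomutase, was at 0.368 over all kept cells, and Ldhd, a D-lactate dehydrogenase, at 0.616 (0.457 to 0.841) in Hlf-high cells, where 2 of 9 genes were higher (29.0% of all genes) and 3 lower (26.4%). In Car1-high over Hlf-high cells 5 of 10 were higher and 4 lower in each library, where 24.5% and 52.3% of all LT-HSC genes and 28.7% and 47.6% of all ST-HSC genes were. By TMM 6 were higher and 3 lower in LT-HSC, where 4953 and 2933 of all 10203 genes tested were. In ST-HSC they were 5 and 3, where 4241 and 3703 of all 10156 genes were.

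Of 27 further genes of pyruvate and the TCA cycle, 22 were tested over all kept cells (5 higher, 5 lower) and in Hlf-high cells (9 higher, 4 lower), with the same shares of all genes as above. The aspartate-glutamate carriers Slc25a12 and Slc25a13 were at 2.49 and 1.91 over all kept cells, and Slc25a12 was at 51.7 and 84.0 CPM (1.63, 1.47 to 1.80) in Hlf-high cells. Pdpr, a regulator of the phosphatase that reactivates pyruvate dehydrogenase, was at 1.90 over all kept cells. Idh1, the cytosolic isocitrate dehydrogenase, was at 0.550 and the oxoglutarate carrier Slc25a11 at 0.609 in Hlf-high cells. In Car1-high over Hlf-high cells 10 of 22 were higher (24.5% of all genes) and 7 lower (52.3%) in LT-HSC, and 12 of 21 higher (28.7%) and 6 lower (47.6%) in ST-HSC. By TMM 15 were higher and 4 lower in LT-HSC, where 4953 and 2933 of all 10203 genes tested were. In ST-HSC they were 15 and 5, where 4241 and 3703 of all 10156 genes were. Pdk4, the remaining kinase, had a mean under 5 CPM in all 7 comparisons.

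The pentose phosphate genes, which draw glucose 6-phosphate off for NADPH and ribose, were mostly higher in Car1-high over Hlf-high cells, with 7 of 10 in LT-HSC (24.5% of all genes) and 8 of 10 in ST-HSC (28.7%), and 1 lower in each (52.3% and 47.6%). By TMM 9 (LT-HSC) and 8 (ST-HSC) were higher, with 0 lower. Under that scaling 4953 of all 10203 LT-HSC genes tested were higher and 2933 lower, and 4241 and 3703 of all 10156 ST-HSC genes. In Pf4-high cells 6 were higher (23.0% of all genes) and 1 lower (42.7%). Over all kept cells 4 were higher in ST-HSC (38.5% of all genes) and 2 lower (23.0%), led by H6pd (1.61), Rpia (0.595) and Pgd (1.45). The balance turned by TMM, with 3 higher and 5 lower, where 3205 and 3235 of all 10407 genes tested were. In Hlf-high cells 3 were higher (29.0% of all genes) and 2 lower (26.4%). By TMM these were 7 and 0, where 3595 and 2358 of all 10747 genes tested were. G6pdx (1.69, 1.36 to 2.13), Prps2 (1.51) and Rpia (0.776) led there. Of 17 genes of the hypoxia response, 14 were tested. In Car1-high over Hlf-high cells 0 were higher and 11 lower in LT-HSC, and 1 higher and 10 lower in ST-HSC. Of all genes 52.3% and 47.6% were lower there. The list's median log2 ratios were -0.95 and -1.30, against -0.38 and -0.25 over all genes. By TMM, which raises every value of a comparison by 1 step, 3 were higher and 7 lower in LT-HSC (median -0.30, all genes 0.29) and 1 and 9 in ST-HSC (median -0.97, all genes 0.10). In Pf4-high cells 1 was higher (23.0% of all genes) and 8 lower (42.7%). By TMM these were 1 and 5, where 3626 and 3147 of all 10460 genes tested were. Ldha, which is known as a target of that response, was higher in all 3 of those comparisons. Over all kept cells ST-HSC had 6 of this list higher (38.5% of all genes) and 4 lower (23.0%), led by Egln3 (4.68), Vegfa (1.85) and Meis1 (1.73). Meis1 is also on the list of HSC markers. In Hlf-high cells 3 of the hypoxia list were higher (29.0% of all genes) and 4 lower (26.4%), near the shares of all genes. The largest changes there were in Ddit4 (0.418, 0.358 to 0.490), Egln3 (2.13) and Ndrg1 (1.88). Egln3 encodes an oxygen-sensing prolyl hydroxylase and Ddit4 an inhibitor of mTOR signalling. In Dntt-positive over Hlf-high cells, where 6.22% of all genes were higher and 12.9% lower, 0 of 8 further glycolysis genes were higher and 1 lower, 0 of 22 pyruvate and TCA genes higher and 1 lower, 2 of 10 pentose phosphate genes higher and 0 lower, and 2 of 14 hypoxia genes higher and 2 lower.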

How the data were processed

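Single-cell 3′ RNA libraries were made with a 10x Genomics kit, per the labels' protocols. The authors deposited UMI counts per gene and barcode without normalization, 1 matrix per library over 32285 gene rows. Per the submitters' processing notes these came from Cell Ranger 7.2 on mm10, while the file headers name Cell Ranger 7.1.0.

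Barcodes with at least 1000 genes and under 10% mitochondrial UMIs were kept. Cells in more than 1 of the Car1-high, Pf4-high and Dntt-positive ranges entered none (6 in LT-HSC, 2 in ST-HSC). Hlf-high cells were in none of the 3, and Hlf and Dntt needed at least 2 UMIs. Ranges with under 50 cells were not compared. UMI counts were summed per library and range and scaled to the total (CPM). Ratios carry exact conditional binomial (Clopper-Pearson) 95% intervals, shares exact Clopper-Pearson ones, and CPM exact Poisson ones. A fold over a gene without UMIs uses the level that 3 counts would give. PCR duplicates are removed by UMIs, but all intervals cover counting error only. Genes with a mean of at least 5 CPM over both sides were tested, and called when at least 25% higher or 20% lower. A cell was cycling when S and G2/M phase genes held at least 1% of 5000 thinned UMIs. The 68 LT-HSC and 281 ST-HSC cells below that depth were left out of the thinned shares. They were also left out of every value without cycling cells. Scrublet (scanpy 1.11.5) marked 6 LT-HSC cells (0.220%, expected rate 2.35%) and 0 ST-HSC cells. Its limit was taken as failed for ST-HSC only, and doublets were left in. In 1 alternative those 6 cells and the 384 ST-HSC cells with the highest scores (expected rate 6.07%) were left out. With so few LT-HSC cells left out, this alternative says little about doublets in that library. TMM sizes came from edgeR 4.0.16. The ratio step was tested on simulated data. Coordinates are from GENCODE M21, and promoters from RefSeq.

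Members named in each comparison are the 4 highest and 4 lowest ratios, the 6 isoform families, and Gapdh, Pkm, Cs and Pdha1. Other genes are up to 3 per list with the largest change. The members, lists and limits were chosen with earlier results of these data known.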

Additional observations from a re-analysis of the deposited data

How the results depend on the processing

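Alternatives were TMM and median-of-ratios scaling, totals without ribosomal and mitochondrial genes, per-cell means, no filter on low counts, every deposited barcode, halved or doubled limits of the cell ranges, and leaving out cycling cells or those marked by Scrublet. Of the counts of members higher or lower, 128 stayed within 1.5 times and 8 moved further. In Car1-high over Hlf-high LT-HSC cells, 24 were higher and 8 lower by TMM and 25 and 8 by median of ratios, against 15 and 13. In ST-HSC Car1-high cells 9 were lower by both scalings, against 14. In Pf4-high cells 21 were higher by median of ratios, against 13. In Dntt-positive cells 2 were higher with doubled limits, against 0. Both scalings move every ratio of a comparison by 1 factor. Of the called log2 ratios of members named by rule, 5 turned: Pfkl in LT-HSC Car1-high over Hlf-high cells (0.076 by TMM, 0.10 by median of ratios), Pdk2 in ST-HSC (0.066 by median of ratios), and Pdk2 (-0.18) and Pkm (0.13) between Car1-high cells without cycling cells; the cause of the last 2 was not tested. Over all members, 145 log2 ratios were called. TMM and median of ratios ended 18 each, and leaving out cycling cells 13. These turned 2, 3 and 2 called ratios, with Mdh1 in LT-HSC Car1-high over Hlf-high cells (0.31 by TMM, 0.33 by median of ratios) beside those named. Of the ratios that were not called, 31, 31 and 16 changed sign. Isoform shares moved by at most 9.46 points (Pfkp in ST-HSC cells outside the ranges, halved limits). That of Ldhb in ST-HSC Hlf-high cells went to 36.3% with doubled limits, outside its main interval of 29.6 to 31.2.

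No paired analysis was possible because each group has 1 library, and for the same reason no replicate could be left out. Depth limits the lowest members: Hk3 had 11 UMIs and Aldoc 23 in LT-HSC Car1-high cells, and Aldoc 8 in ST-HSC ones. How much of such levels came from free RNA was not tested.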
